A study of Mus musculus with 17 samples.

Results

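Dopamine receptors and the proteins that pass their signal on were followed here as 7 genes, chosen by symbol: Drd1, Drd2 and Drd5 (dopamine receptors), Gnal, Ppp1r1b, Adora2a and Kcnj6. They are 7 of the 20328 genes in the RNA-seq table, and all 7 were among the 19300 genes that passed the filter on low counts. In the other tables, 6 of the 7 were listed in scRNA-seq, 1 had regions in CUT&RUN for H3K27ac and 2 had regions in ATAC-seq. The samples were brains of wild-type ICR mice, and the labels give no finer tissue than brain. Healthy controls (sham) were compared with the 6-OHDA-induced PD model, in which mice 8 weeks old received 6-OHDA, a toxin of catecholamine neurons, at 10 µg/µl into the substantia nigra of one side. In the NDST3-treated PD model, 2 µl of an AAV carrying human NDST3 under the CMV promoter, which is not specific to a cell type, followed the lesion after 5 days. By the methods of the study, the lesioned mice without NDST3 were given saline. None of the groups here received a vector without NDST3, so effects of the vector and of its gene cannot be told apart. RNA-seq comprised 2 sham, 1 6-OHDA and 2 NDST3-treated (6-OHDA+NDST3) libraries, with 51003699 to 70533326 counts each. CUT&RUN had 2 libraries a group but 1 column of values that names no replicate, and ATAC-seq and scRNA-seq had 1 library a group. Nothing in the labels ties a library to 1 mouse, so p-values measure the spread between these libraries, which may be technical.

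Dopamine receptors are G protein-coupled receptors. The D1 class (Drd1 and Drd5) couples to stimulatory G proteins, of which the Golf subunit encoded by Gnal is the main one in the striatum, and so raises cyclic AMP, which activates protein kinase A. The D2 class (Drd2, Drd3 and Drd4) couples to inhibitory G proteins and lowers cyclic AMP. DARPP-32, the product of Ppp1r1b, becomes an inhibitor of protein phosphatase 1 when protein kinase A phosphorylates it, and is abundant in medium spiny neurons of the striatum. The adenosine receptor encoded by Adora2a shares the medium spiny neurons of the indirect pathway with Drd2 and acts against it through Golf. Kcnj6 encodes the potassium channel GIRK2, which D2 autoreceptors open in dopamine neurons of the substantia nigra.

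RefSeq promoter windows on GRCm38.p6, from 250 bases before to 50 bases after a gene start, were at hand for 4 of the 7 genes, with 2 entries each for Drd1 and Kcnj6, of which the one at the start of the gene is shown. The windows of Drd2, Drd5 and Kcnj6 are shown because these genes were lower together in the 6-OHDA library, and that of Drd1 because it was not. Capitals mark the GC box GGGCGG or its reverse complement CCGCCC, searched on both strands.
Drd2, chr9:49340153-49340452, plus strand: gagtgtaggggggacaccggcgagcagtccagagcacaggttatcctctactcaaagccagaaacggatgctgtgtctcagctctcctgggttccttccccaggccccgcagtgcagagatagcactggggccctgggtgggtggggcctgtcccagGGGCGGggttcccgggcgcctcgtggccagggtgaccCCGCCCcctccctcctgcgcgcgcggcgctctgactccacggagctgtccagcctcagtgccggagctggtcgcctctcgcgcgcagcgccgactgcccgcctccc
Drd5, chr5:38319259-38319558, plus strand: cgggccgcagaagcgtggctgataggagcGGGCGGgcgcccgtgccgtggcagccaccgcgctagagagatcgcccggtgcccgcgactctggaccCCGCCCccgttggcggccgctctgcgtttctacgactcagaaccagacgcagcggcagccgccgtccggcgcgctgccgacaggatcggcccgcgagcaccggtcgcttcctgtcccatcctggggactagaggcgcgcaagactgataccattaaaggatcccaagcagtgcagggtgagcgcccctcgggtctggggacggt
Kcnj6, chr16:94997647-94997946, minus strand: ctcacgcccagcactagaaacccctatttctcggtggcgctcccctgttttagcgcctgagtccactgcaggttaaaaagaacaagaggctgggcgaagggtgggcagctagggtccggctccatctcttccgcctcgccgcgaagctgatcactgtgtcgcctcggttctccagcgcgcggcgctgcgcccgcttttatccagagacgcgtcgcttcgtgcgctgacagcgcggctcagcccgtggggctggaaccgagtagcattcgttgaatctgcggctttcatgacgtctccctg
Drd1, chr13:54055609-54055908, minus strand: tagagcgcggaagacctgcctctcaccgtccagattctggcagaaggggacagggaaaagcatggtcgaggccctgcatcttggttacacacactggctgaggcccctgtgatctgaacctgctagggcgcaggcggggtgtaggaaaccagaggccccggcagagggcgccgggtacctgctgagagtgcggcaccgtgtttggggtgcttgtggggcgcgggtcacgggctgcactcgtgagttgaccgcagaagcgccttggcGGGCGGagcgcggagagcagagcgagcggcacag

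The GC box stood 2 times in each of the windows of Drd2 and Drd5 and once in that of Drd1, and it was not found in the window of Kcnj6 shown. The second windows of Kcnj6 and Drd1 each held it once, with 9 and 6 CpG dinucleotides. It is common: 35.7% of 32851 RefSeq promoter windows of the same length hold it. The motifs TATAAA, TGACGTCA (the cyclic AMP response element) and AAAGGTCA (an NBRE, the site of NR4A factors), each searched on both strands, were in none of the 4 windows and in 13.6%, 1.79% and 1.51% of all windows. The windows shown held 23 CpG dinucleotides in Drd2, 38 in Drd5, 30 in Kcnj6 and 23 in Drd1, against a median of 7 over all windows. Of all windows, 78.5% held fewer than 23, 88.3% fewer than 30 and 95% fewer than 38. None of the 4 genes had a region in the CUT&RUN or ATAC-seq tables, so these sequences stand beside RNA levels only.

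In TPM, a unit that takes gene length into account, the sham libraries ranked the 7 genes from Gnal at 95.0 ± 6.84 TPM (SD, n = 2) down to Drd1 at 1.23 ± 0.23 TPM. Ppp1r1b at 48.4 ± 2.73 TPM and Drd2 at 42.0 ± 6.71 TPM followed Gnal, and their libraries overlapped. Kcnj6 at 8.41 ± 1.16 TPM and Drd5 at 4.20 ± 0.64 TPM lay apart from their neighbours in this order. Adora2a at 1.26 ± 0.15 TPM and Drd1 overlapped at the low end. Drd2 was thus 33.6 and 35.0 times the TPM of Drd1 in the 2 sham libraries, and Ppp1r1b was 36.2 and 43.7 times it. In the 6-OHDA library the order of TPM levels changed to Gnal at 44.9, Ppp1r1b at 36.9, Drd2 at 3.98, Kcnj6 at 2.36, Adora2a at 1.85, Drd5 at 1.31 and Drd1 at 1.03, and the ratio of Drd2 to Drd1 was 3.87.

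Against sham, 4 of the 7 genes fell after 6-OHDA. Drd2 fell by 3.20, Kcnj6 fell by 1.54, Drd5 fell by 1.48 and Gnal fell by 0.88 on the log2 scale. Drd1, Ppp1r1b and Adora2a did not pass the test in either direction. Of all genes tested, 17.1% were called lower and 18.8% higher in this comparison, at a Benjamini-Hochberg adjusted p under 0.05 from edgeR's quasi-likelihood test. The median log2 fold change was -0.88 over the 7 genes and -0.0025 over all genes. The single 6-OHDA library was assumed to vary like the others. Without sham library 1, and without sham library 2, edgeR called 0 of the 7 genes and 0 of all genes, while the signs of the 4 changes held.

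In the NDST3-treated PD model, 3 of those 4 genes rose against the 6-OHDA library: Drd2 by 2.17, Drd5 by 1.49 and Gnal by 0.79 on the log2 scale. Kcnj6 (0.83, adjusted p = 0.0518 from edgeR) and Ppp1r1b (0.46, adjusted p = 0.0575 from edgeR) missed the threshold, and Drd1 and Adora2a were farther from it. Of all genes tested, 9.06% were called higher and 6.59% lower here. Both comparisons use the same single 6-OHDA library, so a low value in it lowers the first difference and raises the second. The number of the 7 genes called was 0 without sham library 1, without sham library 2 or without NDST3 library 1, and 2 without NDST3 library 2 (Drd2 and Kcnj6).

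**Figure D1:**
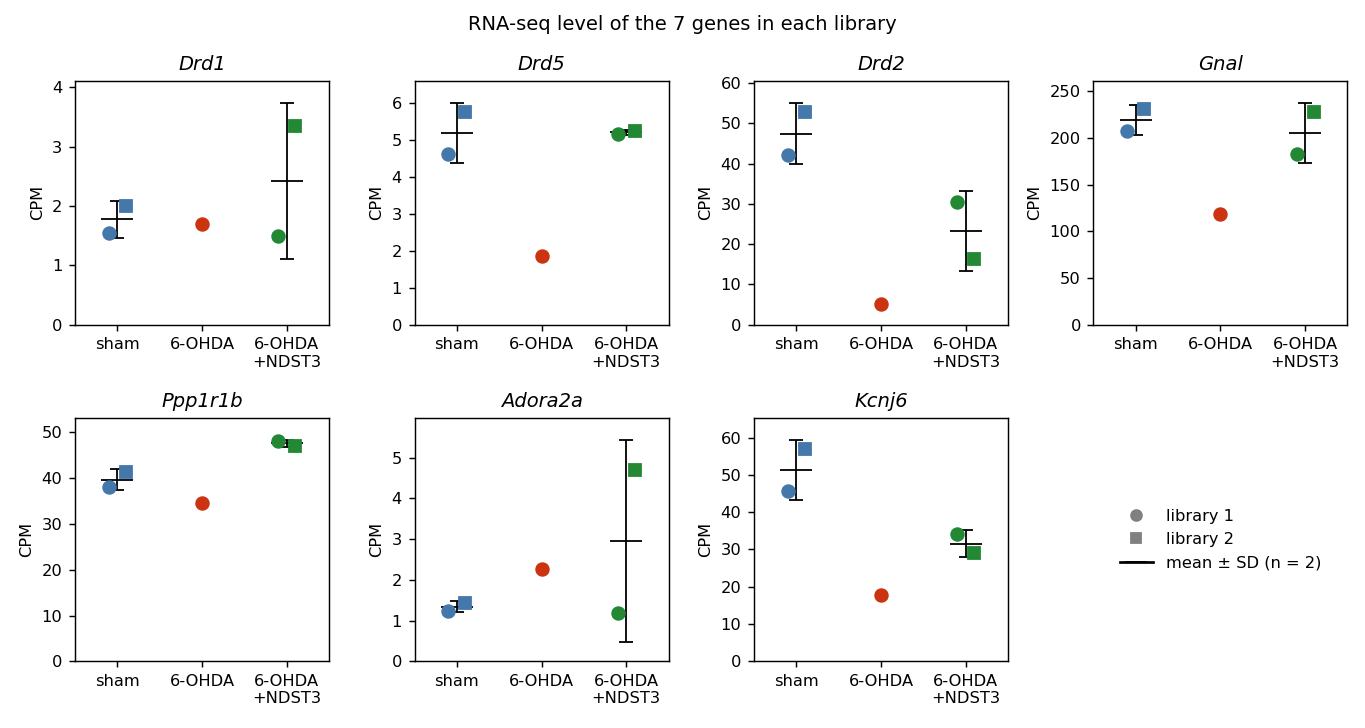
Level of each of the 7 genes in CPM (a count relative to the TMM-scaled library size, linear axes from 0 that differ between panels) in each of the 5 RNA-seq libraries; crosses give mean ± SD of the 2 sham and the 2 NDST3-treated libraries. The 6-OHDA library lies under all other libraries for Drd2, Drd5, Gnal, Kcnj6 and Ppp1r1b.

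Drd2 (NCBI Gene 13489, chromosome 9 of GRCm38 from 49340360 to 49408177) encodes the D2 receptor, which sits both on target neurons and, as autoreceptor, on dopamine neurons. It had 42.0 and 52.7 CPM in sham, 5.17 after 6-OHDA, and 30.4 and 16.3 with NDST3. All 3 groups were apart, with the NDST3 libraries between the others. The log2 fold change was -3.20 (SE 0.46, adjusted p = 0.0102 from edgeR) for 6-OHDA against sham, which is 9.16-fold lower. For NDST3 against 6-OHDA it was 2.17 (SE 0.44, adjusted p = 0.0417 from edgeR), which is 4.51-fold higher. It lay at 1.66 without NDST3 library 1 and at 2.52 without NDST3 library 2. The NDST3 libraries averaged 49.3% of the sham mean, with 64.1% and 34.5% in the 2 libraries.

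Drd5 (NCBI Gene 13492, chromosome 5 from 38319509 to 38322523) encodes the other D1-class receptor and was the D1-class gene with more RNA in these samples. It had 4.62 and 5.76 CPM in sham, 1.86 after 6-OHDA, and 5.16 and 5.26 with NDST3. The 6-OHDA library lay under the other 4, and both NDST3 libraries lay inside the sham range. The changes were -1.48 (SE 0.28, adjusted p = 0.0173 from edgeR) and 1.49 (SE 0.28, adjusted p = 0.0384 from edgeR). Against sham, the NDST3 libraries differed by 0.0034 on the log2 scale (SE 0.21).

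Drd1 (NCBI Gene 13488, chromosome 13 from 54051183 to 54055658) encodes the D1 receptor of direct-pathway medium spiny neurons. It had 1.55 and 1.999 CPM in sham, 1.70 after 6-OHDA, and 1.49 and 3.35 with NDST3, from 80 to 200 counts. The 6-OHDA library lay inside the sham range, and the NDST3 libraries lay on either side of it. The log2 fold change against sham was -0.06 with an SE of 0.56, so a change of the size of that SE was not detectable at this depth and spread.

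The other D2-class receptors had few counts. Drd3 had 80 and 61 counts in sham, 34 after 6-OHDA, and 28 and 61 with NDST3. Drd4 had 6 to 12 counts in all 5 libraries. Neither passed the test in any comparison.

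Gnal (NCBI Gene 14680, chromosome 18 from 67088298 to 67226792) had the most RNA per length of the 7. Chmp1b lies inside it on the same strand, so reads could be split between them. Its levels were 208 and 231 CPM in sham, 119 after 6-OHDA, and 182 and 228 with NDST3. The 6-OHDA library was the lowest and the NDST3 libraries reached into the sham range. The changes were -0.88 (SE 0.18, adjusted p = 0.0201 from edgeR) and 0.79 (SE 0.18, adjusted p = 0.0476 from edgeR). The second lies close to the threshold and passed under 4 of 13 alternative settings.

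Ppp1r1b (NCBI Gene 19049, chromosome 11 from 98348406 to 98357796) had the smallest SE of the 7 against sham. It had 38.0 and 41.3 CPM in sham, 34.5 after 6-OHDA, and 48.1 and 47.1 with NDST3. The groups did not overlap, but the steps were small: -0.20 (SE 0.12, adjusted p = 0.234 from edgeR) for 6-OHDA against sham and 0.46 (SE 0.12) for NDST3 against 6-OHDA. Drd2 and Ppp1r1b had similar TPM in sham, with ratios of 0.80 and 0.93, and the ratio was 0.11 after 6-OHDA and 0.46 and 0.25 with NDST3.

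Adora2a (NCBI Gene 11540, chromosome 10 from 75316877 to 75334792) had 1.24 and 1.43 CPM in sham, 2.265 after 6-OHDA, and 1.19 and 4.71 with NDST3. The second NDST3 library was the highest of the 5 and the first the lowest, so the NDST3 group spanned both other groups. No comparison passed the test (lowest adjusted p = 0.493 from edgeR). Drd1 was likewise highest in the second NDST3 library.

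Kcnj6 (NCBI Gene 16522, chromosome 16 from 94744980 to 94997696) had 45.7 and 57.0 CPM in sham, 17.7 after 6-OHDA, and 34.0 and 29.0 with NDST3. As for Drd2, the NDST3 libraries lay between the groups, at 61.3% of the sham mean. The log2 fold change against sham was -1.54 (SE 0.20, adjusted p = 0.00913 from edgeR). Of its 3 channel partners, Kcnj5 passed the test and Kcnj3 and Kcnj9 did not. Kcnj5 fell by 1.39 (SE 0.29, adjusted p = 0.0228 from edgeR) and rose by 1.45 with NDST3 (adjusted p = 0.042 from edgeR). Kcnj3 and Kcnj9, other subunits of these channels, had log2 fold changes of -0.59 and -0.80 against sham, and adjusted p of 0.159 and 0.149 from edgeR.

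**Figure D2:**
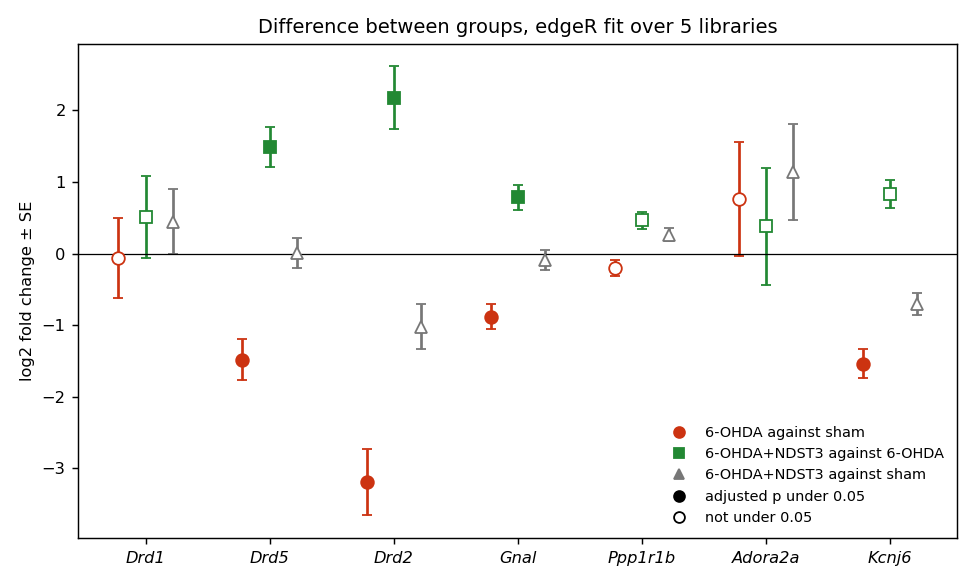
Log2 fold change ± SE of the 7 genes from the edgeR fit over 5 libraries in 3 comparisons, with filled symbols for an adjusted p under 0.05. Drd2 spans the widest range, from -3.20 to 2.17, and no symbol of the comparison of NDST3 with sham is filled.

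Against sham, 0 of the 7 genes and 0 of the 19300 genes passed the adjusted threshold in the NDST3-treated PD model by edgeR. At an unadjusted p under 0.05, edgeR gave 2744 genes (14.2%), among them Drd2, Kcnj6 and Ppp1r1b, with log2 fold changes of -1.02, -0.71 and 0.26. By DESeq2, 1048 genes and 2 of the 7, Drd2 and Kcnj6, passed the adjusted threshold. At the study's rule of a 2-fold change with a raw p under 0.05, Drd2 alone of the 7 passed, beside 1.08% of genes lower and 4.78% higher. The log2 fold change of Drd2 was -1.54 without NDST3 library 1 and -0.66 without NDST3 library 2.

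Markers of neurons moved with these genes. All 16 dopamine neuron markers were called lower in the 6-OHDA library (median log2 fold change -3.38), and 6 of 16 were called higher with NDST3. For NDST3 against sham all 16 had a negative log2 fold change (median -1.83), with 0 called. Th, the rate-limiting enzyme of dopamine synthesis, had 2.15 CPM in the 6-OHDA library and 115 and 135 in sham, and it reached 11.5 and 8.03 in the NDST3 libraries. Slc6a3, the dopamine transporter, had 8 counts after 6-OHDA, 11759 and 16812 in sham, and 380 and 80 with NDST3. All 15 pan-neuronal genes were called lower in the 6-OHDA library as well (median -1.22). With NDST3 against that library, 12 of 15 were called higher (median 1.04). The 4 genes that fell did so beside genes of neurons in general, and in bulk tissue fewer neurons and less RNA per neuron cannot be told apart.

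Set against neuronal RNA, the 7 genes did not share an order of the libraries. For each 10000 CPM summed over the 15 pan-neuronal genes, Drd2 had 40.0 and 45.8 CPM in sham, 12.8 after 6-OHDA, and 32.6 and 19.9 with NDST3, so it was lowest in the 6-OHDA library on this scale too. Kcnj6 had 43.6 and 49.5 in sham, 43.9 in the 6-OHDA library, and 36.6 and 35.3 with NDST3, so on this scale the NDST3 libraries were the lowest of the 5. Drd5 had 4.40 and 5.004 in sham, 4.61 in the 6-OHDA library, and 5.54 and 6.41 with NDST3, and the 6-OHDA library lay inside the sham range. The other 4 genes were above the sham range in the 6-OHDA library. Gnal had 198 and 200.4 in sham, 295 after 6-OHDA, and 196 and 277 with NDST3, and Ppp1r1b had 36.2 and 35.8, 85.7, and 51.7 and 57.3. Drd1 had 1.48 and 1.74 in sham, 4.23 after 6-OHDA, and 1.61 and 4.08 with NDST3, and Adora2a had 1.18 and 1.24, 5.62, and 1.28 and 5.74. These ratios are a description with no test, and their denominator is weighted to the most abundant of the 15 genes.

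**Figure D3:**
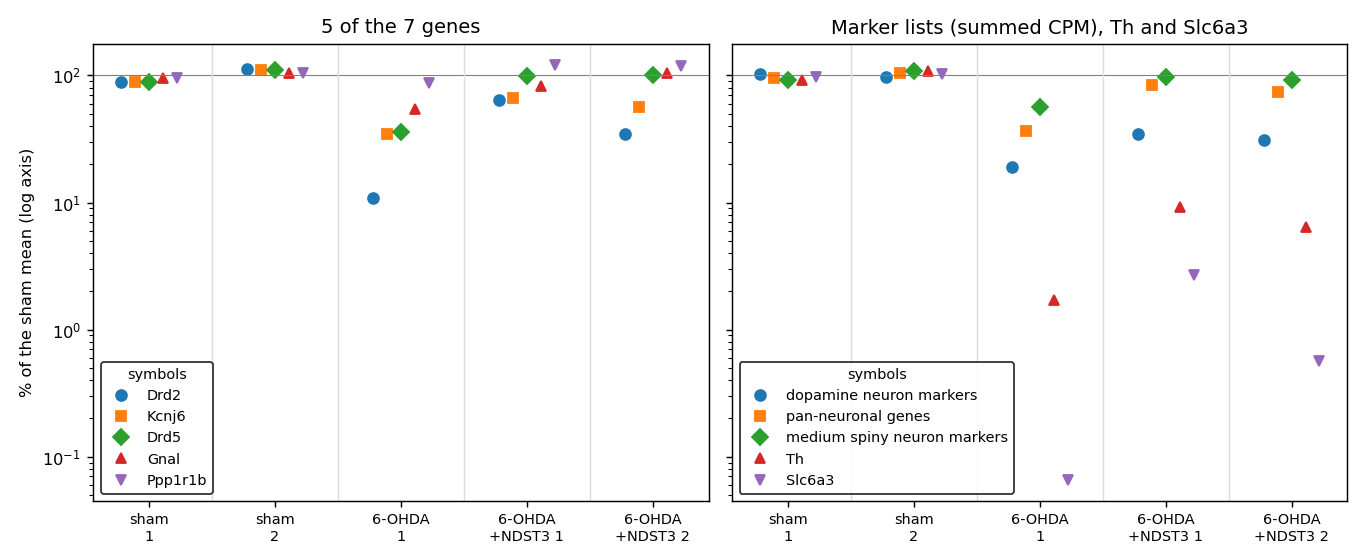
Level in each RNA-seq library as a percentage of the sham mean, on a log axis, for 5 of the 7 genes (left) and for 3 summed marker lists with Th and Slc6a3 (right). Drd2 dropped to 10.9% in the 6-OHDA library, between the pan-neuronal genes at 36.6% and Th at 1.72%.

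Markers of other cells differed between the libraries at the same time. Summed over 8 genes, microglia markers stood at 298 and 391 CPM in sham, 2324 after 6-OHDA, and 807 and 1330 with NDST3, with 7 of 8 called higher against sham. Fibroblast or mural markers stood at 359 and 550 CPM in sham, 1702 after 6-OHDA, and 278 and 369 with NDST3, with 8 of 10 called higher against sham. Their part in the results for the 7 genes was not tested. The mouse gene Ndst3, which is not the human transgene of the vector, had a log2 fold change of 1.21 with NDST3 against 6-OHDA (adjusted p = 0.111 from edgeR). Of the 28 medium spiny neuron markers, 10 were called lower and 1 higher against sham (median -0.52), and 6 were called higher with NDST3. Over all genes the shares were 17.1%, 18.8% and 9.06% in the same order. Scn4b, a sodium channel subunit, fell by 2.34 and Gpr6, a receptor of indirect-pathway neurons, by 2.29. Gpr6 had few counts, with 94 and 123 in sham and 19 after 6-OHDA. Lrrc10b, the 1 called higher, rose by 1.97, and Isl1 had a log2 fold change of 2.33 (adjusted p = 0.0792 from edgeR). Markers of medium spiny neurons were present in all libraries (Penk, the enkephalin precursor, at 84.7 to 148 TPM), and 1 of the 28, Ido1, stayed under 1 TPM in every library.

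The genes that surround the receptors in the pathway did not all move alike. The counts called in these lists, here and below, stand beside the shares over all genes. These were 17.1% lower and 18.8% higher against sham, and 9.06% higher and 6.59% lower with NDST3. Among 15 genes of G proteins and their chaperones, 7 were called lower and 3 higher in the 6-OHDA library. Gnaz, an inhibitory subunit of neurons, fell by 1.34 and Gng3, a neuronal gamma subunit, by 1.12, while the inhibitory subunits Gnai3 and Gnai2 rose by 1.23 and 0.96. With NDST3, 5 were called higher, among them Gnaz (1.01), and 2 lower, Gnai3 and Gnai2. Ric8b, the chaperone of Golf and 1 of these 15, fell by 0.94 (adjusted p = 0.0107 from edgeR). It rose by 0.75 with NDST3 (adjusted p = 0.0378 from edgeR).

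Downstream of the G proteins, 5 of 9 adenylyl cyclases were called lower and 2 higher against sham. Adcy5, the main cyclase of the striatum, fell by 0.80 and rose by 0.63 with NDST3, and Adcy4 changed in the opposite way, by 1.09 and -1.20. Of the 6 subunits of protein kinase A, 5 were called lower, led by Prkar1b (-1.54) and Prkar2b (-1.18), and 4 were called higher with NDST3. Among 6 phosphodiesterases of the striatum, which degrade cyclic nucleotides, 4 were called lower against sham and 2 higher with NDST3. Pde4d fell by 1.15 and rose by 0.92 with NDST3. Pde10a fell by 0.98 and had a log2 fold change of 0.86 with NDST3 (adjusted p = 0.0597 from edgeR). Pde1b, Pde10a and Adcy5 also stand among the medium spiny neuron markers.

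Of 14 receptor kinases, arrestins, RGS proteins and receptor-binding proteins, 5 were called lower and 3 higher against sham. Caly, whose product calcyon binds the D1 receptor, fell by 1.51 and rose by 1.30 with NDST3. Nsf, a factor of membrane fusion, fell by 1.62 and also rose with NDST3 (adjusted p = 0.032 from edgeR). Rgs2 rose by 0.93 and Arrb1, a beta-arrestin, fell by 1.05. Of 14 genes of the phosphatase arm on which DARPP-32 acts, 2 were called lower and 1 higher against sham, and 1 was called higher with NDST3 (Cdk5, a kinase of DARPP-32, at 0.43). Over all genes the same shares were 17.1%, 18.8% and 9.06%, so this list was not called more often than genes in general. Among 8 genes of adenosine receptors and handling, 3 were called higher (Adora3 by 2.57, Ada by 2.40 and Nt5e by 0.99) and 1 lower (Slc29a2). With NDST3 against sham, 0 of the 77 genes of these pathway lists passed the adjusted threshold by edgeR, 12 had an unadjusted p under 0.05, and 3 passed by DESeq2.

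The 3 genes whose pattern over the 5 libraries was most like that of each of the 7 were found among 15523 genes, by the root mean square difference of centred log2(CPM + 1). For Drd2 these were Nefm, a neurofilament, Cacna2d2, a calcium channel subunit, and Kcnk9, a potassium channel, at 0.21 to 0.25, the loosest likeness of the 7. For Gnal they were Pde10a, Zfp385b and Pde1b, at 0.041 to 0.048. For Drd5 they were Grin3a, an NMDA receptor subunit, Eif5a2 and Gpr135, at 0.029 to 0.034. For Kcnj6 they were March4, Card10 and Cplx2, a regulator of synaptic vesicle release, at 0.091 to 0.0998. Ppp1r1b was most like Ttc26, Gdap2 and Kif6, Adora2a most like Wnt3, Lrrtm1 and Gm13864, and Drd1 most like Gkn3, Gm14435 and Inpp4b. With 5 libraries many genes share a pattern, and the likeness is a description with no test.

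Promoter regions were listed for Gnal and Adora2a only. H3K27ac is a histone mark of active promoters and enhancers, and ATAC-seq reads accessible chromatin. CUT&RUN listed 3 regions of Gnal, all 100 bases long. The region at -479 bases from the gene start had a signal of 5.35 in sham, 10.2 in the 6-OHDA-induced and 15.94 in the NDST3-treated PD model. The regions at -262 and -94 bases had 20.31 and 12.05 in sham, 19.15 and 12.95 in the 6-OHDA-induced and 20.7 and 15.44 in the NDST3-treated PD model. Only the first, for NDST3 against sham, passed a 2-fold difference (2.67-fold with a pseudocount of 1), as did 25.5% of the 11424 regions. The NDST3 column was higher than sham over the whole table (median log2 ratio 0.53). With each column divided by its median, that difference was 0.86 on the log2 scale and no longer passed.

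ATAC-seq listed a region at -305 bases from the start of Adora2a, with a signal of 9.8 in sham, 3.5 in the 6-OHDA-induced and 4 in the NDST3-treated PD model. After 6-OHDA it was 2.4-fold lower than in sham, as 5.06% of 3537 regions were by 2-fold or more, and with NDST3 it was 2.16-fold lower than in sham, as 5.91% were. A region of Gnal at -99 bases had 5.9 in sham, 4.5 in the 6-OHDA-induced and 8.5 in the NDST3-treated PD model, all within 2-fold. The gene starts that the 2 tables use for Gnal lie 45262 bases apart, which is the spacing of 2 RefSeq starts of Gnal on GRCm38. The H3K27ac regions belong to the downstream one and the ATAC-seq region to the upstream one. Each group has 1 column, so no test was made. Positions are given by distance only, because the coordinates of the tables do not sit on GRCm38: of 11163 CUT&RUN regions with a gene of the same name on the same chromosome, 496 were centred within 2 kb of an end of that gene.

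**Figure D4:**
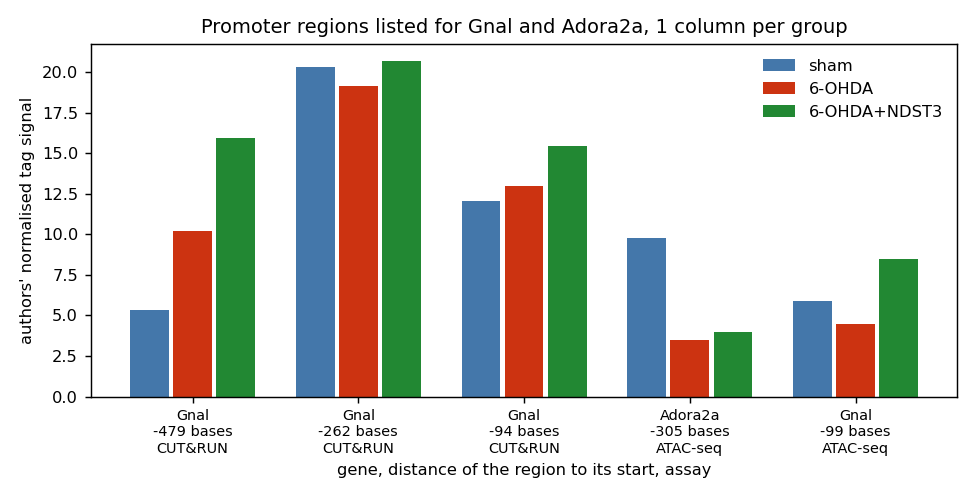
Tag signal as normalised by the authors (linear axis from 0) in the 5 regions listed for Gnal and Adora2a, with 1 bar per group and no replicate columns. The Gnal region at -479 bases runs from 5.35 in sham to 15.94 in the NDST3-treated PD model, and the Adora2a region falls from 9.8 in sham to 3.5.

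In scRNA-seq, with 1 library per group and no sham column used, the table gives the mean of each gene in 9 clusters on a natural log scale. Gnal, Ppp1r1b and Drd1 were highest in cluster 2, where 7 of 8 astrocyte, 7 of 8 oligodendrocyte and 11 of 15 pan-neuronal genes were also highest, so it is left unnamed. There, in the 6-OHDA and the NDST3 library, Gnal had a mean of 0.228 and 0.224, Ppp1r1b of 0.229 and 0.233, and Drd1 of 0.0754 and 0.0869. The means of Drd2 were at or under 0.0023 in all 18 columns, with 15 of them listed at 0, and those of Kcnj6 were at or under 0.0241. Pan-neuronal genes were low in this table, with a median of 0.0537 in cluster 2. Drd5 was not listed.

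Adora2a had another distribution than the other 5 genes listed. It was highest in cluster 4 (0.305 and 0.344), which is T cell-like, with all 10 T cell markers highest there. Cluster 8 followed (0.206 and 0.209), which is left unnamed. Then came cluster 1 (0.156 and 0.132), which is neutrophil-like by 7 of 7 markers, and cluster 5 (0.153 and 0.178). Of 10 fibroblast or mural markers, 6 were highest in cluster 5 and 4 in cluster 2, so cluster 5 is left unnamed too. In cluster 2 Adora2a was at 0.00979 and 0.0236, under its level in those 4 clusters in both libraries. Drd1 had its second highest mean in cluster 5 (0.0392 and 0.0393). Between the 2 libraries, 0 of the 54 pairs of means of the 6 genes differed by 1 on the log2 scale, as did 0.0125% of all gene and cluster pairs, and the largest difference was 0.076. Of the 54 pairs of means, 6 reached 0.1, and means near 0 leave little room for a difference of 1. No test is possible with 1 library per group.

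**Figure D5:**
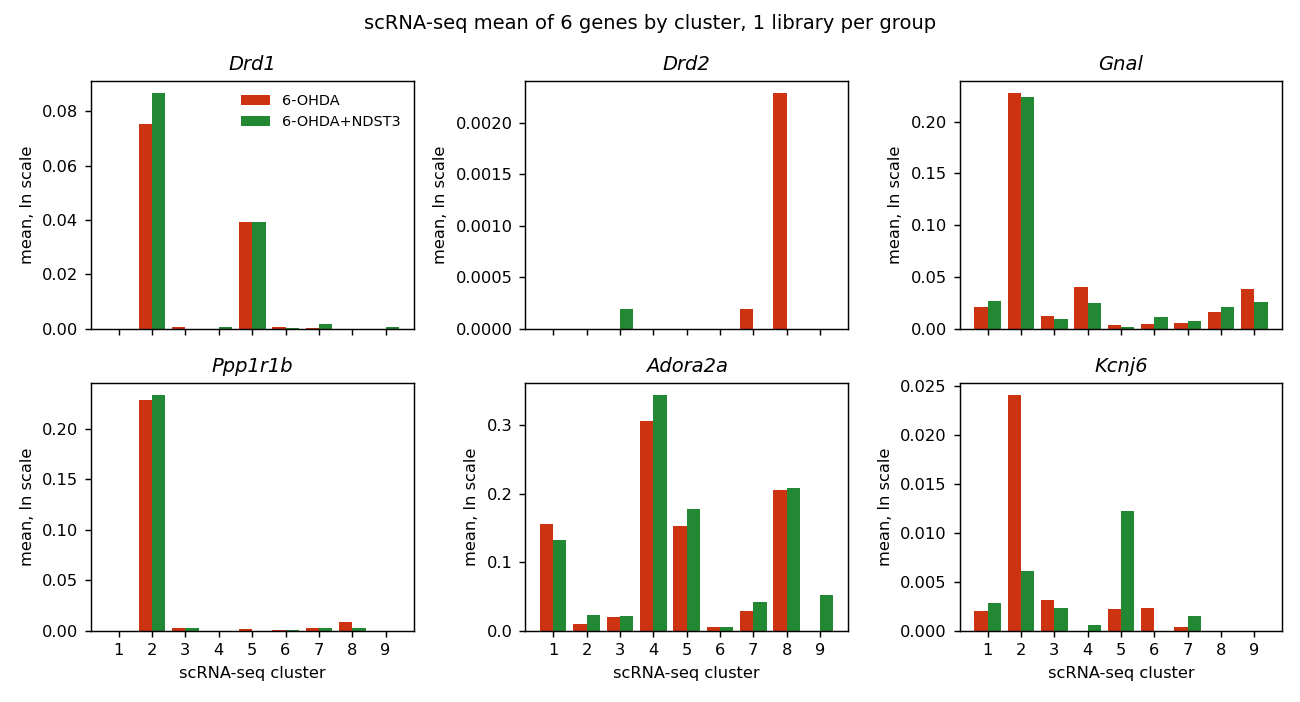
Mean of 6 genes in the 9 scRNA-seq clusters on the natural log scale (linear axes from 0 that differ between panels), 1 library per group. Gnal and Ppp1r1b are highest in cluster 2, Adora2a in clusters 4, 8, 5 and 1, and the panels of Drd2 and Kcnj6 reach 0.0023 and 0.0241 only.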

How the data were processed

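RNA-seq of 5 libraries was analysed from read counts per gene that the authors deposited, after trimming, alignment to mm10 with HISAT2 and assembly with StringTie. FPKM per gene, as deposited, served an alternative fit, and TPM, also deposited by the authors, compared genes per length. CUT&RUN and ATAC-seq values are the signal per region and group that the authors deposited, normalised in a way not given in the sources used here. Each CUT&RUN column was taken to stand for the 2 libraries of a group, and how these were combined is not given. The authors deposited scRNA-seq values as means per cluster that fit a natural log of normalised counts. Against multiplets, cells with very many detected genes were removed upstream. No doublet caller is named, and none can be run on cluster means.

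Counts were tested with edgeR 4.0.16 (R 4.3.3) by the quasi-likelihood test on 5 libraries and 3 group means, with TMM scaling, filterByExpr and 2 residual degrees of freedom. An SE is the log2 fold change divided by the root of F. DESeq2 1.42.0 and limma 3.58.1 were alternatives. Region ratios used a pseudocount of 1. The 7 genes and all lists were chosen with earlier results of these data known. Genes named are the 7, their closest relatives, up to 4 of the largest changes per list and comparison, and 3 of most alike pattern per gene. Drd2, Drd5, Ppp1r1b and Gnal overlap genes on the other strand. The study names a stranded library kit, but whether counting used strand is not given. Whether reads of these partners entered the counts is therefore not known. Gnal also holds Chmp1b on its own strand. Intervals on counts were not computed. Python 3.11.15 with pandas 2.3.3 was used outside R.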

Additional observations from a re-analysis of the deposited data

How the results depend on the processing

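Of 294 log2 fold changes of the 7 genes under other settings, 235 kept direction and side of the threshold, 30 no longer passed, 14 newly passed and 15 turned direction. For 6-OHDA against sham, the 4 of the 7 genes called became 2 with a replicate block, and 0 to 4 with a library left out. The pathway list genes called, 42, became 11 with the block and 0 to 44 with a library left out, and over all genes 6916 became 1796 and 0 to 7140. The counts of 0 came without sham library 1 and without sham library 2. Without either NDST3 library, 4 of the 7 genes were called, and 7037 and 7140 of all genes. For NDST3 against 6-OHDA, the 3 called became 5 with a mean CPM of at least 1, 5 with DESeq2, 0 with only the 2 groups compared, 0 with the block, and 0 to 2 with a library left out. The 22 pathway list genes became 37 with DESeq2, 0 with only the 2 groups, 0 with the block and 0 to 21 with a library left out, and over all genes 3019 became 5232, 0, 0 and 0 to 3163. For NDST3 against sham, the 0 called became 2 with DESeq2 and 1 at the 2-fold and raw p rule, the pathway list genes 3 with DESeq2, and over all genes 1048 and 1131, with 0 to 111 when a library was left out. Whether the replicate numbers pair the libraries is not given. Over genes, the deviations of the first sham and the first NDST3 library from their group means correlated at -0.432. With 2 libraries a group, this compares 1 contrast per group and cannot decide the question. A crossed pairing, chosen after seeing the data, called 4, 5 and 2 of the 7 genes and 7444, 4795 and 1194 of all genes in these 3 comparisons in turn, and 3 pathway list genes in the last.

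The changes that turned direction did not pass the threshold in the report. Drd1 against sham became 0.33 with the block and lay between -0.23 and 0.13 with a library left out. For NDST3 against 6-OHDA, the ranges with a library left out were -0.22 to 0.97 for Drd1 and -0.96 to 1.05 for Adora2a, which was -0.41 with the block. For NDST3 against sham, they were -0.27 to 0.91 for Drd1, -0.19 to 1.81 for Adora2a, -0.15 to 0.17 for Drd5 and -0.29 to 0.053 for Gnal. The lowest values of Drd1 and Adora2a came without NDST3 library 2. Drd5 in that comparison was also -0.020 with RLE scaling, -0.0056 without a filter, -0.0063 with a mean CPM of at least 1, -0.019 with DESeq2 and -0.014 with only the 2 groups. At a 3-fold threshold no region of Gnal or Adora2a passed. The cause was not tested.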
